A study of Mus musculus with 12 samples.

Results

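Potassium channel genes of the mouse hippocampus were described across age and nicotine infusion in a mouse model of Alzheimer's disease. The members were the protein-coding genes whose symbol begins with Kcn followed by a subfamily letter or letters and a number. This rule took 92 of 44760 genes shared by both count tables, or 92 of 22643 protein-coding genes, in 20 subfamilies. By role they were 30 voltage-gated pore genes (subfamilies a, b, c, d, h and q), 10 silent modifiers (f, g, s and v), 8 calcium- or sodium-activated pore genes (ma, n, t and u), 15 inward rectifiers (j), 14 tandem-pore genes (k) and 15 auxiliary subunits (ab, e, ip and mb). The rule used names alone, and it was set with earlier results of these data known.

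The RNA came from hippocampus of male APPswe/PS1dE9 mice on a C57BL/6 background, which overexpress amyloid precursor protein with the Swedish mutation and a presenilin 1 that lacks an exon. Mice of 7 or 18 months were infused for 14 days through an implanted pump with nicotine hydrogen tartrate, labelled as 48 mg/kg/h, or with saline, and each of the 4 groups had 3 libraries. All groups carried both transgenes, so age and infusion were compared in transgenic mice without a wild-type group. Whether each library came from a separate animal is not stated, and p-values measure the spread between these libraries.

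Potassium channels let potassium leave or enter the cell along its gradient and so set the resting potential, shape the action potential and limit firing. Voltage-gated channels open on depolarization, calcium-activated channels on a rise in cell calcium, while inward rectifiers and tandem-pore channels carry resting and receptor-controlled currents. Auxiliary subunits bind the pore proteins and change their gating or transport, and silent modifiers work as channels only together with Kcnb subunits.

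The pore-forming members share a selectivity filter, a short loop whose backbone strips water from potassium ions, and this stretch is shown because most pore genes hold it and auxiliary genes do not form a pore. The longest GENCODE M21 coding sequence of each gene was searched in frame for ACNGTNGGNTANGGN, ACNGTNGGNTTNGGN, ACNATNGGNTANGGN and ACNATNGGNTTNGGN, sense strand only. These patterns hold the codons of threonine, valine or isoleucine, glycine, tyrosine or phenylalanine, and glycine. They also fit a methionine codon in the second place and a leucine codon in the fourth. These letters were found in 57 of 92 members and in 0.417% of 21562 coding sequences. They were in 0 of 15 auxiliary genes, 14 of 15 inward rectifiers, 10 of 10 silent modifiers, 16 of 30 voltage-gated genes and 5 of 8 calcium- or sodium-activated genes. Of the 14 tandem-pore genes, 12 held them, and 11 held them at least 2 times. A wider form chosen after these counts were seen (NNNNTNGGNTNNGGN, which contains the others) was in 75 members, among them 30 of 30 voltage-gated and 0 of 15 auxiliary genes, against 10.3% of coding sequences. The pore genes without a match to either form were Kcnk1 and Kcnk7. Each stretch below is coding sequence, 5′ to 3′, with the filter codons in capitals, for some of the genes on which the results turn.
Kcna1: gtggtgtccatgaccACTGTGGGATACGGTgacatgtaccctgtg
Kcna3: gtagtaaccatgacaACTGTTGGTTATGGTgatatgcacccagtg
Kcnb2: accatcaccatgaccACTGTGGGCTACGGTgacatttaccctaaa
Kcng3: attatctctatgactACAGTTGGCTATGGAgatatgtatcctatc
Kcnh7 (wider form): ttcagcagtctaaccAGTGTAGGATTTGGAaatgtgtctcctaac
Kcnma1: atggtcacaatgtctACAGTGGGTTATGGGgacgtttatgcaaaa
Kcnj6: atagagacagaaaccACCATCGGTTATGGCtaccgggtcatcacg
Kcnk9, first pore: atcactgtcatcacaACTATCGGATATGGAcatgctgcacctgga
Kcnk9, second pore: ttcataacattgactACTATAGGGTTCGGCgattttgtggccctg
The 5 codons in capitals read threonine, isoleucine, glycine, tyrosine, glycine in Kcnj6 and the first Kcnk9 pore. Kcna1, Kcna3, Kcnb2, Kcng3 and Kcnma1 have a valine codon in the second place, the second Kcnk9 pore has phenylalanine in the fourth, and Kcnh7 begins with serine.

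Total counts were 25071195 to 29245972 per library at 7 months and 21260068 to 23715015 at 18 months. Potassium channel genes took 0.447% to 0.522% of the total counts at 7 months and 0.534% to 0.561% at 18 months. Saline library 2 of 7 months stood apart: transcripts longer than 5000 nt took 32.5% of its counts. Their share was 23.2% to 24.1% in the remaining libraries of that age, while the older mice had 36.0% to 36.9%. The ages were deposited in separate tables, so age, table and this difference in long transcripts cannot be told apart. Excitatory hippocampal markers (10 genes, such as Prox1 and Wfs1) summed to 6670 to 8354 CPM (counts scaled to a common library size) over the libraries, with none at 0 throughout. In bulk tissue, fewer cells of a type and less RNA per cell cannot be told apart.

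Most members were detected: 74 of 92 had a mean of at least 1 CPM over 12 libraries, 54 at least 10 CPM and 15 at least 100 CPM. For comparison between genes, CPM were divided by the length of the longest transcript. On this scale Kcnab2, a cytoplasmic subunit of the Kcna channels, led with 235 CPM per kb. Kcnip2, a calcium-binding subunit of the Kcnd channels, had 72.9. Kcna1, an axonal pore gene, had 45.6, Kcnj4, a strong inward rectifier, 35.2, Kcnh3, an ether-a-go-go-like pore gene, 31.0, and Kcnk1, a tandem-pore gene, 29.7 CPM per kb. Each of these genes led its subfamily. Kcnd2 led the A-type Kcnd genes at 19.6, Kcnmb4, the neuronal partner of the large-conductance calcium-activated channel, its own at 17.8 and Kcnma1, the pore of that channel, had 17.3 CPM per kb. Kcnn2, a small-conductance calcium-activated pore gene, had 14.4, Kcnt1, a sodium-activated pore gene, 10.4 and Kcng2, a silent modifier, 10.3 CPM per kb. Kcnf1, Kcnv1 and Kcns2, the leading silent modifiers of their subfamilies, had 7.90, 7.19 and 6.34. The lowest leaders were Kcne2 with 1.504 and Kcnu1, a channel best known from sperm, with 0.888 CPM per kb. With the median transcript length in place of the longest, 18 of 20 subfamilies kept their leading gene.

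**Figure D1:**
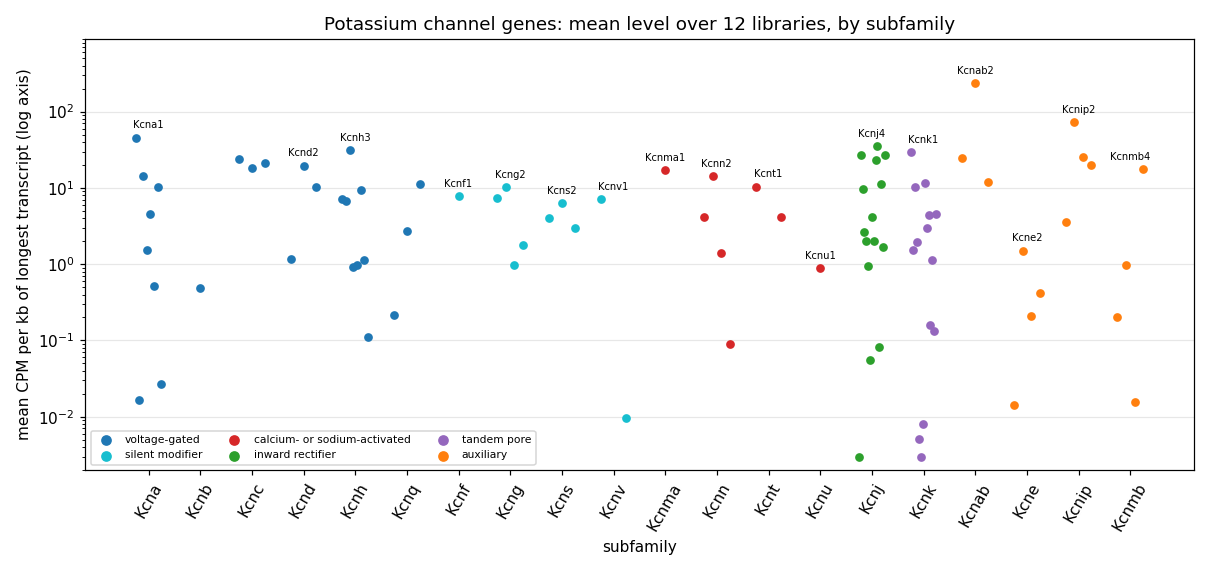
Mean level of potassium channel genes over 12 libraries in CPM per kb of the longest transcript (log axis), by subfamily, with leading genes named; 2 genes below 0.003 are drawn at 0.003. Kcnab2 lies highest at 235, and the genes of most subfamilies with several members spread widely on the log axis.

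Too few counts were found in 11 members for the 12-library test, namely Kcna10, Kcna7, Kcne1, Kcnj1, Kcnj15, Kcnk15, Kcnk16, Kcnk18, Kcnk7, Kcnmb3 and Kcnv2. Kcnj15 had the most of these, 91 counts over 12 libraries, and Kcnk16, known from pancreas, had 1. The 81 members tested are those that passed the filter on low counts, and they are not all members.

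The comparison of 18 with 7 months asked how channel expression differed between these ages in the transgenic mice. In saline mice 23 of 81 members tested were higher and 8 were lower at 18 months (edgeR quasi-likelihood test, adjusted p at 0.05 over all genes), against 21.5% higher and 24.6% lower among 19171 genes tested. In nicotine mice 28 were higher and 9 lower, against 29.5% and 29.8% of all genes. As shares of the members tested, 28.4% and 34.6% rose and 9.9% and 11.1% fell. In the same direction in both infusions passed 29 members, 22 higher (19.3% of all genes) and 7 lower (21.5%). The 6 libraries of 7 months and the 6 of 18 months did not overlap in 17 members that were higher (18.2% of all genes) and 5 that were lower (18.5%). Without saline library 2 of 7 months these numbers were 27 (28.1%) and 7 (28.3%). The median log2 difference of the members was 0.03 in saline and 0.17 in nicotine mice, where all genes had -0.03 in each.

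Most calls among voltage-gated pore genes were rises, and all of those among auxiliary genes were falls. Of 28 voltage-gated pore genes tested, 16 rose and 0 fell in saline mice, and 16 rose and 1 fell in nicotine mice; 15 rose in both. Of 13 auxiliary genes tested, 0 rose and 4 fell in each infusion, and the same 4 genes (Kcnab3, Kcnip1, Kcnip2 and Kcnmb4) fell in both. Among all genes tested, 21.5% rose and 24.6% fell in saline mice, 29.5% and 29.8% in nicotine mice, and 19.3% and 21.5% in both. The number of auxiliary falls was thus near the share of all genes that fell. Inward rectifiers had 2 of 13 genes that rose in both, tandem-pore genes 2 of 10 with 1 that fell, calcium- or sodium-activated genes 2 of 8 with 2 that fell, and silent modifiers 1 of 9. The median log2 difference in saline mice was 0.43 for voltage-gated and -0.31 for auxiliary genes. Median transcript length was 5099 nt in the first and 2732 nt in the second class. The difference between classes was not tested. Without 1 library, 10 to 18 voltage-gated genes rose and 2 to 4 auxiliary genes fell in saline mice; the 10 came without 7-month saline library 1 or 3 or 18-month saline library 3, and the 2 without 7-month or 18-month saline library 3. When each library was adjusted for transcript length and GC content, 8 voltage-gated genes rose and 1 fell in saline mice, 9 rose and 1 fell in nicotine mice, and 1 auxiliary gene rose in nicotine mice.

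The largest rise was that of Kcng3 (chr17:83585957-83631895, minus strand, GRCm38), a silent modifier. Its level was 0.102, 0.816 and 0.112 CPM in the 7-month saline libraries, 0.242, 0.0401 and 0.155 CPM in 7-month nicotine, 4.33, 5.62 and 6.30 CPM in 18-month saline, and 5.59, 7.74 and 8.13 CPM in 18-month nicotine. The 18-month libraries all lay above the 7-month ones, which held 1 to 21 counts each, and saline library 2 was the highest of the latter. The log2 difference was 4.00 (SE 0.55, adjusted p = 0.000311) in saline and 5.53 (SE 0.61, adjusted p = 5.1e-05) in nicotine mice, and 5.63 in saline mice without that library. Kcna3 (chr3:107036169-107038070, plus strand), a voltage-gated pore gene well known from lymphocytes and microglia, showed the same order. Its levels were 0.170, 1.52 and 0.112 CPM in 7-month saline, 0.104, 0.241 and 0.116 CPM in 7-month nicotine, 5.14, 5.89 and 5.30 CPM in 18-month saline, and 5.93, 5.08 and 5.39 CPM in 18-month nicotine libraries. The ages again did not overlap, and saline library 2, with 39 counts against 3 to 6 in the other 7-month libraries, lay between them. The log2 difference was 3.21 (SE 0.60, adjusted p = 0.00155) in saline and 5.13 (SE 0.72) in nicotine mice, and 5.24 in saline mice without saline library 2. The summed level of 10 microglial markers was 385 to 634 CPM at 7 months and 537 to 674 CPM at 18 months, with none at 0 throughout; their part in the Kcna3 difference was not tested.

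Kcnh7 and Kcnh5, voltage-gated pore genes of the ether-a-go-go family, were also among the largest rises. Kcnh7 (chr2:62693414-63184287, minus strand) had 1.73, 7.92 and 2.35 CPM in 7-month saline and 1.94, 1.41 and 1.36 CPM in 7-month nicotine libraries. It had 27.3, 24.1 and 22.5 CPM in 18-month saline and 30.9, 28.9 and 33.5 CPM in 18-month nicotine libraries. All 18-month values were at least 22.5 CPM, while the single 7-month value above 2.4 CPM was that of saline library 2. The log2 difference was 2.63 (SE 0.41, adjusted p = 0.000619) in saline and 4.30 (SE 0.45) in nicotine mice, and 3.62 in saline mice without that library. Kcnh5 (chr12:74897220-75177332, minus strand) had 1.53, 2.60 and 1.16, then 1.73, 1.45 and 1.05 CPM at 7 months, and 5.68, 6.21 and 4.40, then 7.67, 6.20 and 7.33 CPM at 18 months, with saline before nicotine. Its log2 difference was 1.62 (SE 0.28) in saline and 2.32 (SE 0.28) in nicotine mice, with no overlap of the ages. Kcnh6 had a smaller rise of 0.91 (SE 0.24) in saline and 0.98 (SE 0.24) in nicotine mice.

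Genes of the M-current, which restrains repetitive firing, were among those that rose. This current is carried by channels of the Kcnq subfamily, and muscarinic acetylcholine receptors close them. Kcnq3 (chr15:65986387-66286642, minus strand) had 5.66, 22.4 and 8.33 CPM in 7-month saline, 5.36, 6.26 and 5.70 CPM in 7-month nicotine, 57.9, 47.7 and 51.0 CPM in 18-month saline and 59.2, 55.7 and 59.4 CPM in 18-month nicotine libraries. The ages did not overlap, and saline library 2 was the only 7-month library above 8.4 CPM. The log2 difference was 2.11 (SE 0.36, adjusted p = 0.000954) in saline and 3.33 (SE 0.38) in nicotine mice, and 2.93 in saline mice without that library. Kcnq5 had 45.9, 91.6 and 49.6 CPM in 7-month and 108, 91.8 and 119 CPM in 18-month saline libraries, where the groups did not overlap. Under nicotine its range was 49.4 to 67.0 CPM at 7 and 73.3 to 114 CPM at 18 months. Its log2 difference of 0.77 in saline lost the call when any of 4 libraries was left out (7-month saline 1 or 3, 18-month saline 1 or 3, adjusted p = 0.0571 to 0.0977 by edgeR). That of 0.64 in nicotine mice lost it without any of 6 (7-month nicotine 1 or 3, 18-month saline 1 or 3, 18-month nicotine 1 or 2, adjusted p = 0.0525 to 0.172).

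Kcnj6 (chr16:94748636-94997701, minus strand), an inward rectifier that opens when inhibitory receptors activate G proteins, was the largest riser of its class. It had 14.1, 33.3 and 18.2 CPM in 7-month saline, 13.4, 14.1 and 13.7 CPM in 7-month nicotine, 65.6, 53.7 and 59.8 CPM in 18-month saline and 67.6, 59.1 and 75.0 CPM in 18-month nicotine libraries. The ages did not overlap, with a log2 difference of 1.45 (SE 0.24, adjusted p = 0.000806) in saline and 2.29 (SE 0.25) in nicotine mice. Its channel partner Kcnj3 rose in nicotine mice (0.54, adjusted p = 0.001) and had 0.22 (adjusted p = 0.0992) in saline mice, where it passed without saline library 2 (0.35, adjusted p = 0.00415). Kcnb2 (chr1:15287254-15723750, plus strand), a delayed rectifier, had 4.04, 5.51 and 3.18 CPM in 7-month saline, 3.01, 2.77 and 2.44 CPM in 7-month nicotine, 10.3, 10.6 and 9.65 CPM in 18-month saline and 10.9, 12.7 and 12.1 CPM in 18-month nicotine libraries. Again no 7-month library reached the 18-month range. The log2 difference was 1.26 (SE 0.18, adjusted p = 0.000356) in saline and 2.11 (SE 0.18) in nicotine mice. Kcnk9, an acid-sensitive tandem-pore gene of resting current, had 32.0, 67.4 and 28.0 CPM in 7-month saline and 72.0, 72.3 and 83.3 CPM in 18-month saline libraries. Saline library 2 lay just under the 18-month libraries, and the log2 difference was 0.84 (SE 0.25, adjusted p = 0.0159) in saline and 1.41 (SE 0.25) in nicotine mice. In saline mice it was 0.66 (adjusted p = 0.0719) without 7-month saline library 1 and 1.37 without library 2.

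The other 12 genes that rose in both infusions did so by 0.33 to 0.73 on the log2 scale in saline and 0.45 to 0.87 in nicotine mice. They held several abundant pore genes. Kcnma1, the large-conductance calcium-activated channel, had 144, 212 and 132 CPM in 7-month and 271, 250 and 279 CPM in 18-month saline libraries (log2 difference 0.72, SE 0.14). Kcna1 had 131, 182 and 140 CPM in 7-month and 238, 217 and 219 CPM in 18-month saline libraries (0.58, SE 0.11). In both genes the ages did not overlap in either infusion, and saline library 2 was the highest of the 7-month libraries. Kcnc1 (0.39, SE 0.11), a pore gene of fast-spiking neurons, rose in saline and in nicotine mice; it lost the saline call without 7-month saline library 1 or 3 or 18-month saline library 3 (adjusted p = 0.0534 to 0.0637 by edgeR). Kcnc2 had 0.25 (SE 0.11, adjusted p = 0.0735) in saline and 0.25 (adjusted p = 0.0626) in nicotine mice; without saline library 2 it passed in both (0.39, adjusted p = 0.0013, and 0.26, adjusted p = 0.0077, by edgeR). Kcnd2, an A-type gene of dendrites, rose in nicotine mice (0.75, SE 0.11) and had 0.25 (SE 0.11, adjusted p = 0.0806) in saline mice, where it passed without saline library 2 (0.36, adjusted p = 0.014) and by DESeq2 (adjusted p = 0.0451). The summed level of 10 interneuron markers was 955 to 1268 CPM at 7 and 704 to 766 CPM at 18 months, opposite to Kcnc1. Of these markers 0 passed as higher and 5 as lower in saline mice, and 0 and 7 in nicotine mice. Among all genes 21.5% and 24.6%, then 29.5% and 29.8%, did so. In each infusion 2 of the 10 markers had a log2 difference above 0. The part of these markers in the values of Kcnc1, Kcnc2 and Kcnd2 was not tested. Kcnn3, a small-conductance calcium-activated gene named after its values were seen, had 4.07, 18.5 and 3.81 CPM in 7-month saline and 13.6, 20.4 and 19.0 CPM in 18-month saline libraries. It passed in nicotine mice (2.29, SE 0.50), and in saline mice it had 1.01 (adjusted p = 0.0919) with and 2.19 (adjusted p = 1.17e-06) without saline library 2.

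The members that fell in both infusions numbered 7 of 81 tested, against 21.5% of all genes, and 4 of them were auxiliary subunits. Kcnmb4 had 35.9, 24.4 and 37.2 CPM in 7-month saline, 36.5, 38.7 and 39.6 CPM in 7-month nicotine, 24.4, 20.4 and 20.4 CPM in 18-month saline and 21.4, 24.3 and 23.8 CPM in 18-month nicotine libraries. Its log2 difference was -0.58 (SE 0.14, adjusted p = 0.00623) in saline and -0.72 (SE 0.14) in nicotine mice, while its pore partner Kcnma1 rose. With adjustment for transcript length and GC content, Kcnma1 no longer rose (-0.05, adjusted p = 0.597, and -0.27, adjusted p = 0.00711, by edgeR). Kcnmb4 then had -0.44 in saline and -0.56 in nicotine mice. Kcnip2 had 233, 195 and 288 CPM in 7-month saline, 258, 338 and 310 CPM in 7-month nicotine, 176, 181 and 195 CPM in 18-month saline and 179, 171 and 200 CPM in 18-month nicotine libraries. Its saline groups overlapped at 195 CPM and its nicotine groups did not. The log2 difference was -0.72 (SE 0.14, adjusted p = 0.000868) in nicotine mice. In saline mice it was -0.38 (SE 0.14, adjusted p = 0.0406), which missed the threshold when any of 8 of 12 libraries was left out (adjusted p = 0.0517 to 0.223). The 4 libraries whose omission kept it were 7-month saline 2, 7-month nicotine 1 and 2, and 18-month nicotine 2. Kcnip1, a partner of the same Kcnd channels, fell by 0.37 on the log2 scale in saline and by 0.39 in nicotine mice. The first call was lost without 7-month saline library 3 (adjusted p = 0.106) or 18-month saline library 3 (adjusted p = 0.103), the second without 7-month nicotine library 3 (adjusted p = 0.0519). Kcnab3, a Kcna partner, fell by 0.52 and by 0.63 respectively.

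The 3 pore genes that fell were Kcnk1, Kcnn1 and Kcnu1. Kcnk1 had 66.4, 63.0 and 83.6 CPM in 7-month saline, 85.2, 98.5 and 83.5 CPM in 7-month nicotine, 52.5, 47.3 and 47.3 CPM in 18-month saline and 59.8, 50.7 and 59.9 CPM in 18-month nicotine libraries. The ages did not overlap, with log2 differences of -0.53 (SE 0.12, adjusted p = 0.00367) and -0.65 (SE 0.12). Kcnn1, a small-conductance calcium-activated gene, fell by 0.37 on the log2 scale in saline and by 0.64 in nicotine mice. The saline call was lost without 7-month saline library 3 (adjusted p = 0.0764) or 18-month saline library 2 (adjusted p = 0.0655). Kcnu1 had 3.57 to 4.75 CPM over the 7-month and 1.88 to 2.70 CPM over the 18-month libraries, a fall of 0.83 and of 0.81 on the log2 scale.

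**Figure D2:**
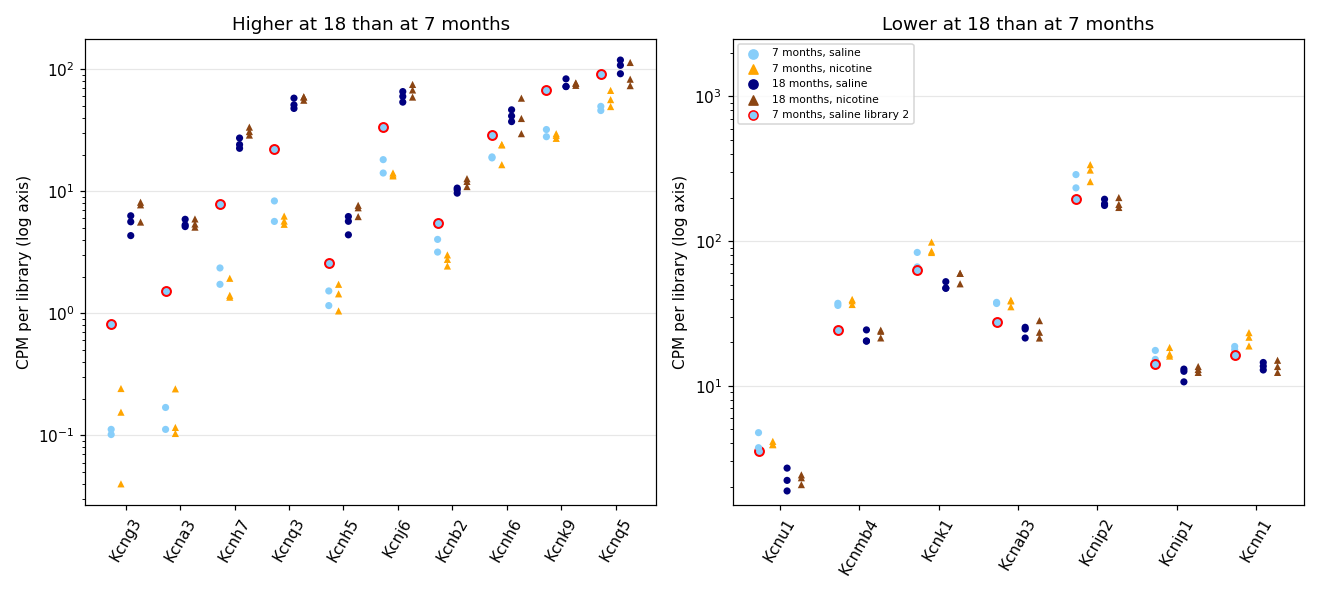
CPM (log axis) in each of the 12 libraries for the 10 largest rises (left) and the 7 falls (right) that passed in both infusions; point shape and colour give the group, and the red outline marks saline library 2 of 7 months. In all 17 genes that library lies between the average of the other 7-month libraries and that of the 18-month libraries.

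In each of these 17 genes saline library 2 of 7 months lay between the geometric mean of the other 7-month libraries and that of the 18-month libraries. On the log scale it lay 22.5% of the way for Kcnu1, 43.0% to 68.4% for most, and 83.0% to 91.2% for Kcnmb4, Kcnip2, Kcnk9 and Kcnq5. Without this library, 29 members were higher and 13 lower in saline mice. Without 7-month saline library 3, the count fell to 15 higher and 5 lower. Its omission left the directions of the 17 genes as they were.

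The size of the age difference went with transcript length, among members as among all genes. Spearman's rho between the log2 difference in saline mice and the longest transcript was 0.55 over 81 members and 0.42 over 16200 genes (in nicotine mice 0.62 and 0.48). These are descriptions across genes of the same libraries, and genes are not independent replicates. Members of up to 3000 nt had a median of -0.25 (all such genes -0.34), those of 3000 to 5000 nt -0.02 (-0.03), those of 5000 to 10000 nt 0.37 (0.31) and those longer than 10000 nt 0.84 (0.72). All 7 members longer than 10000 nt, Kcna2 and Kcnk9 among them, rose in both infusions. The genes that rose in both had a median length of 7206 nt, those that fell 3114 nt, and all members tested 3922 nt. The members of each length class thus lay near the genes of their length.

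Not all large risers were long by GENCODE annotation: Kcng3 has 3356 nt, Kcna3 1902 nt, Kcnj6 3627 nt and Kcnh5 4058 nt. The RefSeq gene span, introns included, is longer than that of GENCODE by 12034 nt for Kcng3 and 3651 nt for Kcnj6. For Kcna3 it is longer by 66 nt and for Kcnh5 by 3 nt. The adjustment for transcript length and GC content used GENCODE lengths only, and longer transcripts of these genes were not tested. With it the log2 differences of Kcng3, Kcna3, Kcnj6 and Kcnh5 in saline mice were 4.08, 3.37, 1.45 and 1.56. Those of Kcnh7 (2.02), Kcnq3 (1.48) and Kcnb2 (0.45) became smaller and still passed. Kcnk9 had 0.11 (adjusted p = 0.497) in saline and 0.28 (adjusted p = 0.0672) in nicotine mice, and Kcnq5 had 0.36 (adjusted p = 0.144) and -0.04 (adjusted p = 0.862). Kcnma1 had -0.05 in saline and -0.27 in nicotine mice, and Kcna2 -0.21 and -0.44. Kcnma1 and Kcna2 thus changed from higher to lower in nicotine mice under the adjustment (adjusted p = 0.00711 and 0.00279). Kcnc1 had 0.01 (adjusted p = 0.902) and 0.07 (adjusted p = 0.396), and Kcnd2 0.02 (adjusted p = 0.888) and 0.34 (adjusted p = 0.0205). Kcnj3 had -0.01 (adjusted p = 0.963) and 0.11 (adjusted p = 0.318). Kcnc2 had 0.03 (adjusted p = 0.807) in saline and -0.15 (adjusted p = 0.142) in nicotine mice by edgeR. For Kcnn3 the values were 0.62 (adjusted p = 0.183) and 1.45 (adjusted p = 0.00672) by edgeR. Kcna1 kept its rise at 0.52 and 0.73 with its GENCODE length, while its RefSeq span is 3351 nt longer than that of GENCODE. With the adjustment 15 members were higher and 8 lower in saline mice, of which 12 and 5 were among those called without it. In nicotine mice 19 were higher and 9 lower, with 15 and 6 shared. Among the fallers Kcnab3 lost its call in both infusions (adjusted p = 0.0513 and 0.0658) and Kcnip2 in saline mice (adjusted p = 0.263).

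**Figure D3:**
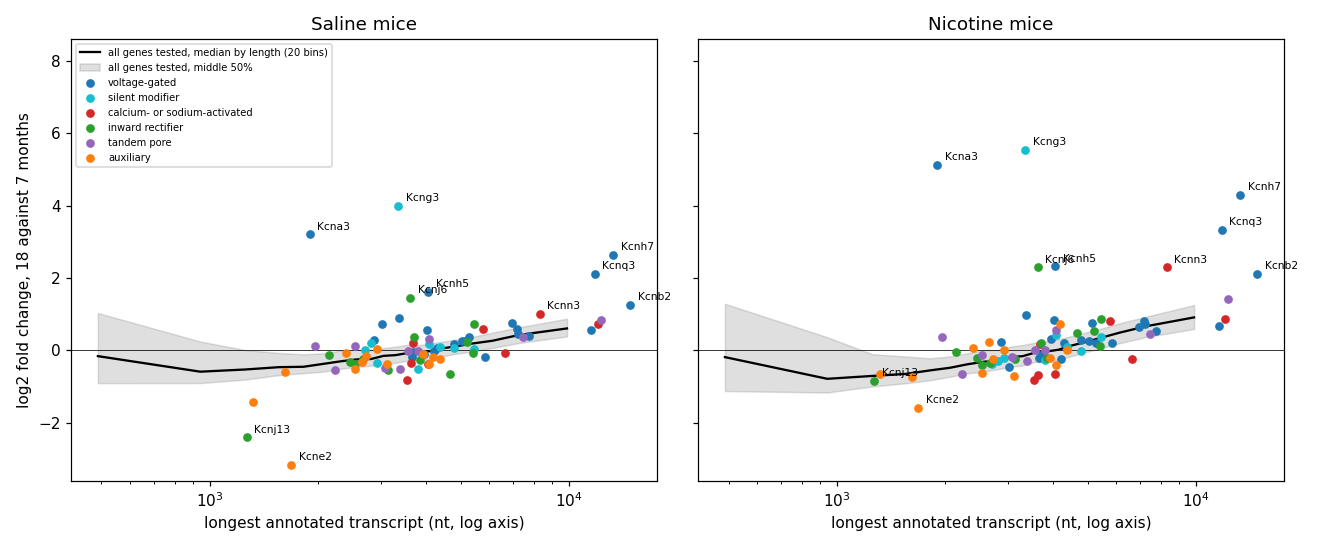
Log2 difference between 18 and 7 months for potassium channel genes tested against the length of the longest transcript (log axis), in saline (left) and nicotine mice (right), coloured by class; the line is the median of all genes tested in 20 length bins and the band their middle 50%. Most members follow the line, while Kcng3, Kcna3, Kcnh7 and Kcnq3 lie far above it.

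Whether the infusion changed channel expression was asked first within each age. At 7 months 0 of 79 members tested passed (edgeR), against 0.0114% of all genes, and at 18 months 0 of 77, against 0.044%. For the effect averaged over both ages 0 of 81 passed (0.0365% of all genes), and for the difference of the effects between ages 0 of 81 (0.00522%). DESeq2 called 0 members in each comparison as well. At an unadjusted p under 0.05 there were 10 members at 7 months (6.5% of all genes), 11 at 18 months (6.73%), 11 for the average (6.86%) and 8 for the difference (7.85%). At 7 months the groups did not overlap in 5 members that were higher (9.04% of all genes) and 9 that were lower (8.37%), and at 18 months in 5 and 3 (6.62% and 5.15%). The comparisons within ages and their average share libraries and are not separate evidence.

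Values are given for the members with the smallest p. At 7 months Kcng2, a silent modifier, had 24.1, 21.01 and 27.2 CPM under saline and 28.2, 41.9 and 34.7 CPM under nicotine (log2 difference 0.52, SE 0.17, adjusted p = 0.656). Kcnk13, a tandem-pore gene known from microglia, had 7.63, 7.18 and 9.68 CPM under saline and 6.33, 4.25 and 5.74 CPM under nicotine (-0.60, SE 0.20, adjusted p = 0.656). In both genes the groups did not overlap. Kcnmb1 (-0.93, SE 0.34), a calcium-activated channel subunit of smooth muscle, Kcnb2 (-0.65, SE 0.25) and Kcna6 (-0.36, SE 0.14), a Kcna pore gene, had the same adjusted p of 0.656. Kcnb2 had -0.40 without saline library 2.

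At 18 months Kcnh7 had the smallest p, with 27.3, 24.1 and 22.5 CPM under saline and 30.9, 28.9 and 33.5 CPM under nicotine (log2 difference 0.32, SE 0.09, adjusted p = 0.519). Kcnip3, a calcium-binding protein that also acts in the nucleus, had 74.9, 67.9 and 71.3 CPM under saline and 53.5, 61.7 and 65.1 CPM under nicotine (-0.26, SE 0.07, adjusted p = 0.561). Neither pair of groups overlapped, and neither difference passed. Kcnj10 (-0.29, SE 0.10) and Kcnd2 (0.20, SE 0.07) had adjusted p = 0.649 and 0.682.

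Averaged over both ages, Kcnk1 had a log2 difference of 0.27 (SE 0.08, adjusted p = 0.523) and Kcnn2 of 0.22 (SE 0.07, adjusted p = 0.57). Kcnj10 (-0.37, SE 0.12), Kcnk13 (-0.43, SE 0.14) and Kcnk10 (-0.29, SE 0.10), a stretch-sensitive tandem-pore gene, had adjusted p = 0.609 to 0.629. Kcnk1 was thus above 0 under nicotine at both ages, 0.31 (SE 0.13) at 7 and 0.20 (SE 0.07) at 18 months, without passing. The difference of the effects between ages was 0.85 for Kcnb2, 0.50 for Kcnd2, 1.67 for Kcnh7, -0.51 for Kcng2 and 0.84 for Kcnj6, with adjusted p = 0.601 to 0.623. Without saline library 2 of 7 months it was 0.60, 0.41, 0.69, -0.44 and 0.39. The values of Kcnh7 and Kcnj6 moved the most of the 5.

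At 7 months 27 of 79 members were above 0 and the median log2 difference was -0.11, while all genes had -0.01. Voltage-gated genes had a median of -0.18 and auxiliary genes of 0.13. Across the 79 members the nicotine difference at 7 months went against transcript length, with rho -0.58 (all genes -0.44). Without saline library 2 of 7 months rho was -0.25 (all genes -0.10) and the members' median -0.02. At 18 months the median was 0.02 with 43 of 77 above 0, and rho with length was -0.13.

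**Figure D4:**
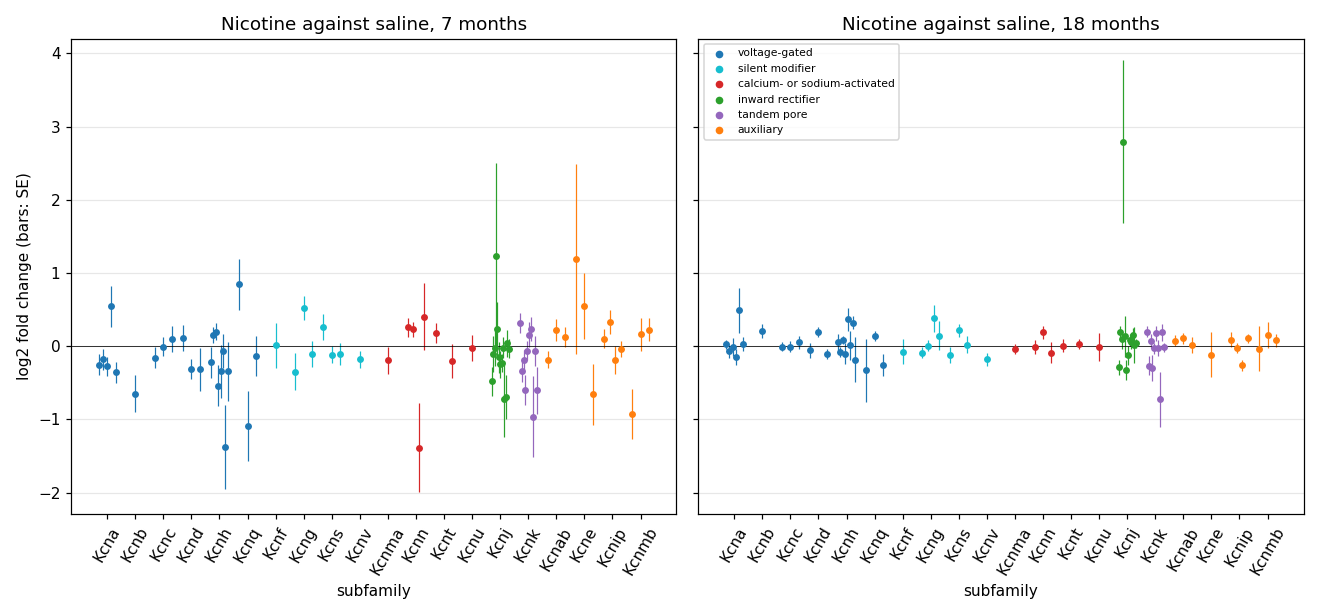
Log2 difference between nicotine and saline for potassium channel genes tested at 7 months (left) and 18 months (right), by subfamily and coloured by class; bars are 1 SE. No member passed at either age; the single point near 2.8 at 18 months is Kcnj13.

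Some members mark cells other than neurons. Kcnj13 and Kcne2 are known from choroid plexus epithelium, and they varied between single libraries of a group. Kcnj13 had 0.644, 1.86 and 3.77 CPM in 7-month saline, 13.7, 0.161 and 0.853 CPM in 7-month nicotine, 0.179, 0.810 and 0.181 CPM in 18-month saline and 7.08, 0.840 and 0.284 CPM in 18-month nicotine libraries. Kcne2 had 0.678, 1.48 and 5.19, then 15.7, 0.281 and 0.853, then 0.134, 0.540 and 0.136, and then 5.25, 0.140 and 0.142 CPM in the same order. Both were highest in 7-month nicotine library 1, 18-month nicotine library 1 and 7-month saline library 3. The choroid plexus transcript Ttr had its 3 highest levels there too, 5876, 1397 and 1528 CPM, and 2.36 to 405 CPM elsewhere. The 10 choroid plexus markers summed to 60.2 to 6208 CPM at 7 months and 23.1 to 1546 CPM at 18 months, with none at 0 throughout. Kcnj13 had a log2 nicotine difference of 2.80 (SE 1.11, adjusted p = 0.698) at 18 months, where its groups overlapped. Age differences were -2.40 (adjusted p = 0.225) for Kcnj13 and -3.15 (adjusted p = 0.155) for Kcne2 in saline mice. Exons of Kcnj13 overlap those of Gigyf2 on the other strand, so that reads of the 2 genes cannot be told apart without strand.

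The promoters of these 2 genes are shown because the genes moved together across the libraries. Each is the RefSeq sequence of 250 bases before the start on GRCm38.p6, 5′ to 3′ on the gene's strand, Kcnj13 at chr1:87394730-87394979 (minus strand) and the first of 2 Kcne2 starts at chr16:92292139-92292388 (plus strand), with the motif found in capitals.
Kcnj13: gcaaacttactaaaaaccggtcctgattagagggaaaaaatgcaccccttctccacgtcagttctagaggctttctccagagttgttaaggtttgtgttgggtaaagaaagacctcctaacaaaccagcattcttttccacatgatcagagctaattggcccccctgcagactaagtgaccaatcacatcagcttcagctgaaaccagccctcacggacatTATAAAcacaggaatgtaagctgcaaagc
Kcne2: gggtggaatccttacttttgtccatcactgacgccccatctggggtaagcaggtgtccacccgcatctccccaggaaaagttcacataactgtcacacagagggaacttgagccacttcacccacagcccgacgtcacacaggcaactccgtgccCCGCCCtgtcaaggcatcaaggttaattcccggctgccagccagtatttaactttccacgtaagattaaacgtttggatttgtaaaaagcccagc
Both strands were searched for a TATA box (TATAAA), a GC box (GGGCGG), an E-box (CACGTG), a cyclic AMP response element (TGACGTCA) and the TAATCC core bound by Otx2. Kcnj13 held a TATA box, which 12.4% of 32851 mouse promoters of this length hold, and Kcne2 a GC box, which 32.7% hold. Neither of these windows held TAATCC (6.25% of promoters). The 67 members with a promoter in the table had 92 promoters. Of these promoters 41 held a GC box, 3 a TATA box and 1 TAATCC. An E-box was in 6 (6.02% of all promoters) and the cyclic AMP element in 0 (1.55%).

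**Figure D5:**
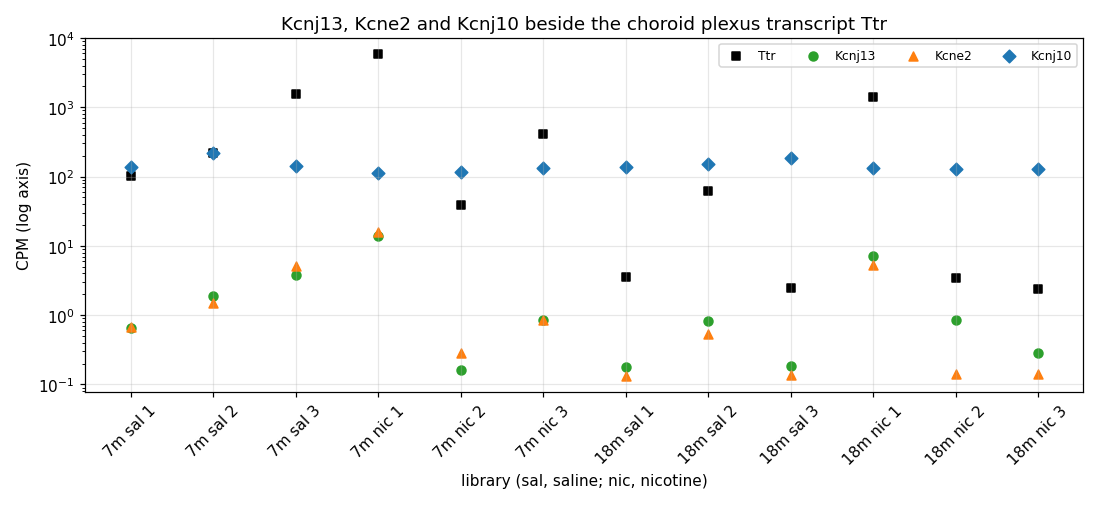
CPM (log axis) of Kcnj13, Kcne2 and Kcnj10 beside the choroid plexus transcript Ttr in each of the 12 libraries (sal, saline; nic, nicotine). Kcnj13 and Kcne2 peak with Ttr in 7-month nicotine library 1, while Kcnj10 stays between 113 and 220 CPM.

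Kcnj10, the main inward rectifier of astrocytes, which clears potassium released by neurons, had 137, 220 and 141 CPM in 7-month saline, 113, 116 and 133 CPM in 7-month nicotine, 138, 150 and 188 CPM in 18-month saline and 133, 130 and 130 CPM in 18-month nicotine libraries. At both ages each nicotine library lay below each saline library, yet the difference did not pass, and the ages overlapped (age difference in saline mice -0.07, adjusted p = 0.776, and 0.22, adjusted p = 0.113, without 7-month saline library 2). Its astrocyte partner Kcnj16 had 11.5 to 18.7 CPM in 7-month saline and 15.9 to 21.7 CPM in 18-month saline libraries. The age difference of Kcnj16 in saline mice was 0.38 (adjusted p = 0.108), and without saline library 2 of 7 months it passed (0.63, adjusted p = 0.00489). In nicotine mice Kcnj16 did not pass with that library (0.20, adjusted p = 0.371) or without it (0.21, adjusted p = 0.216, by edgeR). The 10 astrocyte markers summed to 4201 to 5053 CPM at 7 months and 5923 to 6554 CPM at 18 months, but did not move as 1. Of these markers 5 passed as higher and 4 as lower at 18 months in saline mice, and 4 and 4 in nicotine mice. Among all genes 21.5% and 24.6%, then 29.5% and 29.8%, did so. Kcnj8, an ATP-sensitive inward rectifier of pericytes, had 2.65 to 5.61 CPM over all libraries, and Kcnn4, a calcium-activated gene known from microglia, stayed under 0.55 CPM. Kcnk13 had 4.35 to 7.15 CPM in 18-month saline libraries, with an age difference of -0.48 (adjusted p = 0.0689), which passed without 7-month saline library 2 (-0.53, adjusted p = 0.0476). With length and GC offsets it was -0.27 (adjusted p = 0.276, by edgeR). In nicotine mice Kcnk13 did not pass with that library (-0.18, adjusted p = 0.472) or without it (-0.17, adjusted p = 0.479, by edgeR).

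Genes that work with these channels but are not Kcn genes were read from lists. Of 32 partner genes tested, 12 rose and 7 fell with age in saline mice, and 14 rose and 5 fell in nicotine mice, against 21.5% and 24.6%, then 29.5% and 29.8%, of all genes; 0 passed in any nicotine comparison. The sodium channel anchor Ank3, which also holds M-current channels at the axon start, rose by 1.42 (SE 0.24) in saline and 1.89 (SE 0.24) in nicotine mice on the log2 scale. Ank2 rose by 1.21 and 1.60, and the anchoring protein Akap5, which binds the M-current channels, by 1.02 and 1.46. In each of these genes saline library 2 of 7 months lay between the other 7-month and the 18-month libraries. It had 332 CPM of Ank3 (others 141 to 159), 607 of Ank2 (318 to 335) and 71.7 of Akap5 (36.48 to 46.05). Values of these genes without that library, or adjusted for transcript length and GC content, are not given. Of 11 pumps and cotransporters that move potassium, 1 rose and 1 fell in saline mice, and 3 rose and 3 fell in nicotine mice. The shares of all genes were 21.5% and 24.6%, then 29.5% and 29.8%. Slc12a5, the neuronal chloride exporter, rose (0.24 and 0.35) and Atp1b3, a sodium pump subunit, fell (-0.57 and -0.48) in both.

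Position and strand limit some of these readings. Exons of 26 of 92 members overlap an annotated gene on the other strand, among them 12 of the 29 that passed in both age comparisons, such as Kcnh7 with Gca, Kcnj6 with Gm41505 and Kcnmb4 with Kcnmb4os1 and Kcnmb4os2. The strand setting of the counting is not stated, so the reads of such pairs cannot be told apart. Several members lie side by side within 200000 nt, such as Kcna3 and Kcna2, 63076 nt apart, Kcna1 and Kcna6, 61945 nt apart, Kcnj9 and Kcnj10, 11892 nt apart, and Kcnip1 and Kcnmb1, which overlap. Of the first pair, Kcna3 had a log2 difference of 3.21 and Kcna2 of 0.56 in saline mice.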

How the data were processed

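The deposited tables, 1 per age, hold raw counts per gene, which the authors had not normalized. TopHat and the build GRCm38 are named in the submitters' processing notes; the counting tool, its annotation and the strand setting are not given in the sources used here. Per the labels' protocols the library kit was one for small RNA, while the counts cover mRNA. Genes were joined by symbol. The members and lists were chosen with earlier results of these data known. Lengths and coding sequences came from GENCODE M21 and promoters from RefSeq (GRCm38.p6); the search of protein sequences that was planned was replaced by one of coding sequences.

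Differences came from the quasi-likelihood F-test of edgeR 4.0.16 under R 4.3.3, with TMM scaling, the filterByExpr filter and adjustment by Benjamini-Hochberg over all genes tested (threshold 0.05), within age for nicotine and over 12 libraries with 4 group means for the other comparisons. SE is the absolute log2 difference divided by the square root of F. CPM were scaled by TMM factors over 12 libraries. Depth covers counting error only. With 3 against 3 libraries the smallest two-sided permutation p is 0.1, so only the model was used. The fits were tested on simulated data that held known changes. Replicate numbers were not used to pair libraries in the main fits. Departures of same-numbered libraries from their group means correlated from -0.207 to 0.27 across 13929 genes. Between the infusions at 7 months the values were 0.125, -0.063 and -0.088 for numbers 1, 2 and 3. Column headers of both first 7-month libraries share a prefix that the rest of that age lack, and its meaning is not stated. Differently numbered libraries were not compared, so these values cannot show that pairing is absent.

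Named genes were the 10 largest rises and falls that passed in both age comparisons with a mean log2 CPM of at least 1, the 5 smallest p of each nicotine comparison, the leading gene of each subfamily and 16 genes taken for their role; partner genes were up to 4 per list by smallest p. Others named are Kcna2, Kcnj3 and Kcnn3, chosen after their values were seen. Some named genes and sequences are not reported here. Alternatives were RLE scaling, no filter, DESeq2 1.42.0, a replicate block, leaving out libraries, all 12 libraries in 1 fit, and offsets for length and GC content (splines, 4 degrees of freedom). Tables were made with pandas 2.3.3 and numpy 2.4.6 under Python 3.11.15, figures with matplotlib 3.10.9.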

Additional observations from a re-analysis of the deposited data

How the results depend on the processing

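No potassium channel gene passed in any nicotine comparison under any alternative run, with counts of 0 throughout. In all genes the nicotine calls moved with the tool: at 7 months 2 by edgeR and 83 by DESeq2, at 18 months 8 and 57, for the average 7 and 79, and for the difference 1 and 36. The members called with age in saline mice numbered 31, and 20 to 42 when 1 library was left out; in nicotine mice 37, and 32 to 41. In saline mice 19 were called without both first 7-month libraries and 17 without both 7-month libraries numbered 3, where fewer samples entered the fit. RLE scaling gave 30 and 38, no filter 30 and 37, DESeq2 33 and 39, and length and GC offsets 23 and 28. Kcnq5 in nicotine mice went from 0.64 to -0.043 on the log2 scale with these offsets; the cause was not tested. With the replicate block the counts of called members were 0 in the nicotine comparisons, 30 in saline and 38 in nicotine mice with age, and 5 members lost and 4 gained a call in saline mice, 1 and 2 in nicotine mice. In saline mice Kcnip1 lost it (adjusted p = 0.0599 by edgeR), while Kcnn3 (1.36, adjusted p = 0.016), Kcne2 (-2.92, adjusted p = 0.00718) and Kcnj13 (-2.34, adjusted p = 0.0326) gained one, and in nicotine mice Kcne2 did (-1.69, adjusted p = 0.0309). Kcnab3, Kcnip2, Kcnip1, Kcnn1, Kcnh6, Kcnk9 and Kcnq5 each lost the age call under at least 1 alternative. Low counts limit Kcng3 and Kcna3 at 7 months, where most libraries held 1 to 7 counts.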
